A study of Mus musculus with 21 samples.

Results

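The response of inguinal lymph nodes to ultraviolet B light (UVB) in mice that make interferon kappa in the epidermis was read from 6 of the 21 RNA-seq libraries of the series. Libraries 10, 11 and 12 came from irradiated Ifnk TG mice (UVTx) and libraries 4, 5 and 6 from Ifnk TG mice that were not irradiated (NoTx), and all 6 were chosen by their genotype and treatment labels. Ifnk TG mice carry an Ifnk transgene under the keratin 14 promoter, which is active in basal keratinocytes, and the line was crossed onto BALB/c. UVTx was 250 mJ/cm2 of UVB from lamps emitting at 310 nm, given 3 times a week for 2 weeks, and the nodes that drain the irradiated skin were taken after 2 more weeks of observation. The labels give no sex, age or mouse number for these libraries, and they do not say whether NoTx mice were also shaved and restrained. Another 6 node libraries, 3 WT NoTx and 3 WT UVTx from BALB/c mice without the transgene, belong to the same batch 1 and serve here for comparison. The 9 skin libraries were not used here.

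Interferon kappa is a type I interferon made mainly by keratinocytes. Type I interferons signal through a shared receptor to a transcription factor complex that binds interferon-stimulated response elements (ISRE), and interferon gamma, made by T and NK cells, signals through another receptor to factors that bind gamma-activated sites (GAS). Many target genes carry both kinds of site, so the gene lists for the 2 cytokines cannot assign a difference to either of them. A lymph node holds mainly B and T cells, with reticular fibroblasts that supply chemokines and IL-7, high endothelial venules through which lymphocytes enter, and dendritic cells that arrive from the skin.

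The 6 Ifnk TG libraries held 29308395 to 36428435 counts each, within the range of 27599809 to 36428435 over all 12 node libraries. Ifnk had 0 counts in all 12 libraries, where the level that 3 counts mark is the floor, and Krt14 had 0 or 1. The genotype labels could not be checked on the transgene, which is driven by an epidermal promoter. The Y-linked gene Ddx3y was counted at 2507 to 7084 and the X inactivation gene Xist at 3 to 42 in every library, as in tissue from males. On the first principal component, which held 27.9% of the variance, the 3 NoTx libraries of Ifnk TG mice lay at −23.8, −30.6 and −17.4, and UVTx libraries 10 and 11 lay at 37.6 and 9.71. UVTx library 12 lay at −19.5, among the NoTx libraries, and it stood farthest from its group, with a chi-square per degree of freedom of 104 against library 10 and 66.0 against library 11, where the other pairs within groups gave 15.1 to 55.5. Counts of list members without library 12 are given beside those with it where they differ by more than 1.5 times. Leaving out a library can only add to a count of genes that lie wholly above or below, and without library 12 the shares over all genes were 19.8% above and 18.3% below. The study's supplement counts the irradiated node samples of both genotypes as mice. For the NoTx groups, whether the libraries are separate mice is not stated. The p-values measure the spread between these libraries.

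**Figure D1:**
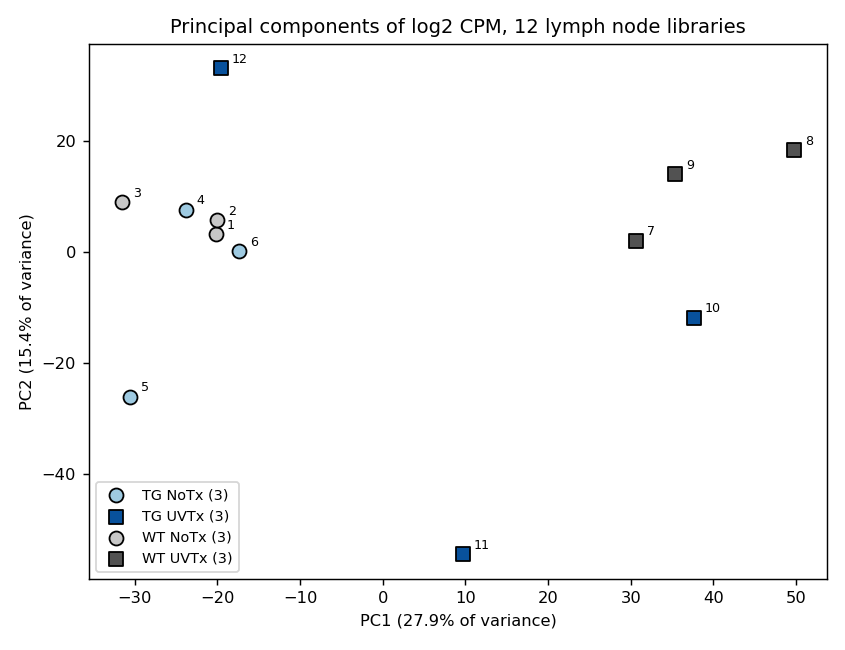
Each point is 1 of the 12 lymph node libraries, placed by its score on the first principal component (x axis, 27.9% of the variance) and the second (y axis, 15.4%), and coloured by genotype and treatment. The WT UVTx libraries and Ifnk TG UVTx libraries 10 and 11 have positive first-component scores, while Ifnk TG UVTx library 12 lies at −19.5 beside the NoTx libraries.

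In the irradiated Ifnk TG nodes the interferon-inducible GTPases (Gbp2b, Igtp, Irgm2, Tgtp2) were about 0.9 higher on the log2 scale than in unirradiated ones. Stromal and vessel genes lay on the other side, with Il7 lower by a log2 difference of −2.08, Cxcl13 by −2.12 and Glycam1 by −1.33. No gene passed an adjusted p of 0.05 by edgeR's quasi-likelihood test with Benjamini-Hochberg adjustment, which gave 0 of 16173 genes tested (0%) and a lowest adjusted p of 0.1545. Without adjustment, 792 genes (4.9%) were higher and 715 (4.42%) lower at p under 0.05, 1507 in all. DESeq2 called 137 genes at an adjusted p under 0.05, of which 68 of 16115 (0.422%) were higher and 69 (0.428%) lower, and limma-voom with library weights called 110. Without UVTx library 12 edgeR called 236 genes, 170 higher and 66 lower. Among them were 10 higher members of the interferon gamma list and 5 lower members of the reticular stroma list, both described below. With all 6 libraries those lists held 34 and 26 of the 16173 genes tested. A description that needs no model is whether all 3 UVTx libraries lay above or below all 3 NoTx libraries. Of the 16173 genes, 1007 (6.23%) lay wholly above and 1150 (7.11%) wholly below, and the median log2 difference over all genes was 0.02. Those shares are the background for each gene list, and 136 of DESeq2's 137 genes had libraries that did not overlap.

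The interferon gamma response list held the larger share of separated members of the interferon lists. These genes encode large and small GTPases that coat and break open the vacuoles of intracellular pathogens, with their regulators. Of 34 members tested, 32 had a log2 difference above 0, with a median of 0.65, 25 (73.5%) lay wholly above the NoTx libraries and 1 (2.94%), Nos2, wholly below. DESeq2 called 16 of them higher and none lower, edgeR none, and 25 higher and 1 lower had an edgeR p under 0.05 without adjustment. This list, the type I list below and all other gene lists described here were chosen with earlier results of these data known. The direction and shares of these lists are therefore not independent evidence. With 1 of the 6 libraries left out, the median ran from 0.55 to 0.71 and 22 to 27 members had an edgeR p under 0.05 without adjustment. The list score, the mean over members of log2 CPM (counts scaled to a common library size) relative to each gene's own mean over 12 libraries, was −0.16, −0.42 and −0.34 in NoTx and 0.23, 0.41 and 0.18 in UVTx, so that library 12 was above every NoTx library too.

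Gbp2b, a guanylate-binding protein gene on chromosome 3 (GRCm38, 142594847 to 142619179), had the lowest p of all genes. It was measured at 86.7, 61.7 and 69.7 CPM in NoTx and at 135, 151 and 125 CPM in UVTx. All UVTx libraries lay above all NoTx libraries, with means of 72.7 ± 12.8 and 137 ± 13.1 CPM (SD, n = 3 each). The log2 difference was 0.91 ± 0.14 (SE), with an adjusted p of 0.1545 by edgeR and 4.422e-05 by DESeq2. Its neighbour Gbp2 (142620602 to 142638008) gave 157, 94.8 and 124 CPM against 210, 245 and 210 CPM, a log2 difference of 0.82 ± 0.16 without overlap. Gbp2b and Gbp2 are near copies, as are Tgtp1 and Tgtp2, and the estimated counts divide reads between such genes, so the split within each pair is uncertain. Gbp3, on the same cluster, was at 44.4, 38.5 and 40.6 CPM in NoTx and 62.9, 68.2 and 56.9 CPM in UVTx, and Gbp4 at 328, 275 and 289 against 532, 560 and 354 CPM. Both lay wholly higher, with log2 differences of 0.61 ± 0.12 and 0.70 ± 0.17.

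The immunity-related GTPases showed the same separation. Igtp (chromosome 11, 58199556 to 58207591) was at 211, 146 and 178 CPM in NoTx and 339, 358 and 308 CPM in UVTx, a log2 difference of 0.91 ± 0.16. Irgm2 (58199618 to 58222782) was at 103, 76.3 and 109 CPM against 180, 183 and 166 CPM, a difference of 0.88 ± 0.16. The annotated spans of Igtp and Irgm2 overlap and both genes lie on the plus strand, so the 2 genes may not be separate measurements. All 3 UVTx libraries of both genes lay above NoTx. Tgtp2, which encodes a T cell specific GTPase on chromosome 11, was at 240.0, 178 and 222 CPM against 411, 433 and 375 CPM, a difference of 0.93 ± 0.17 without overlap. DESeq2 gave adjusted p-values of 0.0001724 for Igtp, 0.0003247 for Irgm2 and 0.0002528 for Tgtp2, and edgeR 0.1545 for each. Further members, named after their values were seen, were Iigp1 at 68.4, 46.6 and 52.3 against 128, 168 and 105 CPM and Gbp10 at 21.4, 13.5 and 19.3 against 50.2, 83.0 and 48.3 CPM. Their log2 differences were 1.26 ± 0.25 and 1.74 ± 0.34, both called higher by DESeq2 and neither by edgeR. Nos2, the inducible nitric oxide synthase of macrophages, lay the other way, at 0.460, 0.880 and 0.461 CPM in NoTx and 0.145, 0.0696 and 0.122 CPM in UVTx. Its level in UVTx library 11 was under the floor of 3 counts.

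**Figure D2:**
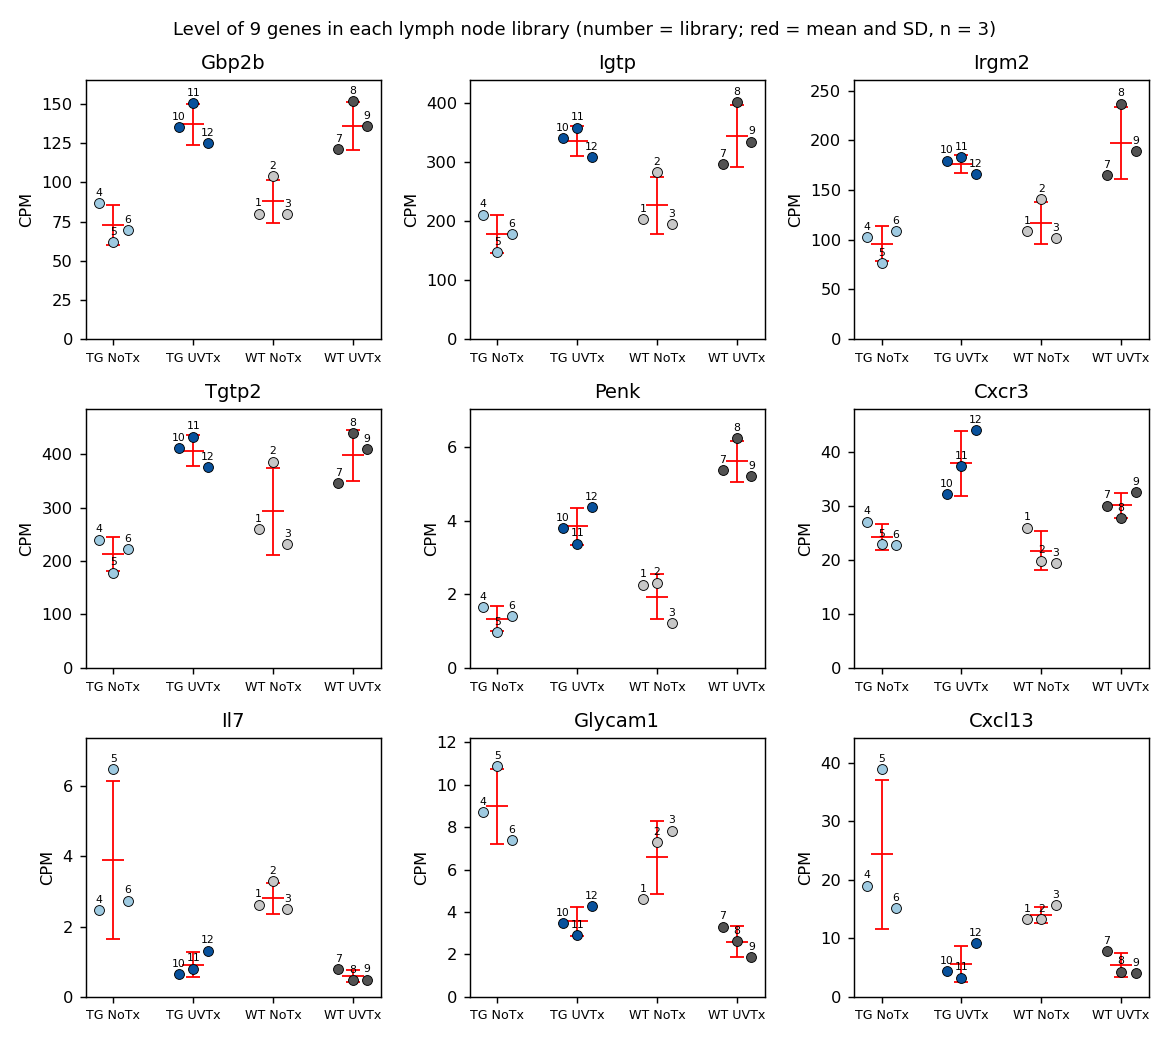
Each panel shows 1 gene's level in CPM (y axis) in the 12 node libraries, grouped on the x axis by genotype and treatment, with the mean and SD of each group in red. In the Ifnk TG groups the UVTx points lie above the NoTx points for Gbp2b, Igtp, Irgm2, Tgtp2, Penk and Cxcr3, and below them for Il7, Glycam1 and Cxcl13.

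The promoters of these GTPase genes are shown so that the 250 bases before their start sites can be compared. The 6 genes are those of the interferon gamma list, called by DESeq2, with the largest differences among those with a usable entry in the RefSeq promoter table (GRCm38.p6). Other members, such as Iigp1 and Gbp10, are not shown. Each sequence runs 5′ to 3′ on the gene's strand, and capitals mark matches to an ISRE-type motif (GAAA, any 2 bases, GAAA) and a GAS-type motif (TTC, any 3 bases, GAA), each searched on both strands.
Tgtp2, chr11:49064213-49064462, minus strand: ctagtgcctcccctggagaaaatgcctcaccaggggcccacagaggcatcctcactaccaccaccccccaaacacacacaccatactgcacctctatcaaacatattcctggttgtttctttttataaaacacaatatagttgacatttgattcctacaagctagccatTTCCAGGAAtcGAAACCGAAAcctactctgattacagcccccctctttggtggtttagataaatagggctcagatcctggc
Tgtp1, chr11:48992247-48992496, minus strand: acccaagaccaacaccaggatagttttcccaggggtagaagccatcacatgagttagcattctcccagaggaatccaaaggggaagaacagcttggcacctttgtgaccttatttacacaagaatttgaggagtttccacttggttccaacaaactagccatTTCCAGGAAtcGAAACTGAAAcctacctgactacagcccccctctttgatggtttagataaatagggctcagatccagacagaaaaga
Igtp, chr11:58199306-58199555, plus strand: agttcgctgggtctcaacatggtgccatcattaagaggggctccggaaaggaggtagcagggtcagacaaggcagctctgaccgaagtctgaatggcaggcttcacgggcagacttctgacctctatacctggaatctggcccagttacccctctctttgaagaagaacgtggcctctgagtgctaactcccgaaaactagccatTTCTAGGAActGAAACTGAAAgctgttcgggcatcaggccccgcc
Irgm2, chr11:58214727-58214976, plus strand: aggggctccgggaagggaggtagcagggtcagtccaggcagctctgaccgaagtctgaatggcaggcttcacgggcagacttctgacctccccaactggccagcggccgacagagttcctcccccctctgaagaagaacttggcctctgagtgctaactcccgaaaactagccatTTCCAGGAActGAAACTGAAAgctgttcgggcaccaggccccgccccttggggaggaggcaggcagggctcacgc
Gbp2b, chr3:142594597-142594846, plus strand: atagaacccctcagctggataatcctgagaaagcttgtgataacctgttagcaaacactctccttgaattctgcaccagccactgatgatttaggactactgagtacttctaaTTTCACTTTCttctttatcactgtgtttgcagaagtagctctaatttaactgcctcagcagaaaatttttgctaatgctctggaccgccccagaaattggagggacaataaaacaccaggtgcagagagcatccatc
Gbp7, chr3:142530086-142530335, plus strand: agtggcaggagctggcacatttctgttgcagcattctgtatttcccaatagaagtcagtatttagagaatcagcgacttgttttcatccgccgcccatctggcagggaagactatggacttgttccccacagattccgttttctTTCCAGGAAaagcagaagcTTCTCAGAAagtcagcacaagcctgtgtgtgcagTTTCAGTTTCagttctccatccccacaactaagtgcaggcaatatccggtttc

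In Tgtp2, Tgtp1, Igtp and Irgm2, 1 GAS-type match is followed after 2 bases by 1 ISRE-type match. Gbp2b holds 1 ISRE-type match, read on the opposite strand, and no GAS-type match, while Gbp7 holds 1 ISRE-type and 2 GAS-type matches. Of the 34 members of the interferon gamma list, 22 had a promoter entry, and 12 of those (54.5%) held the ISRE-type and 10 (45.5%) the GAS-type motif. Among 40 of the 55 type I list members with an entry, 15 (37.5%) held the ISRE-type and 4 (10%) the GAS-type motif. For all tested genes with an entry, 10961 of 16159 symbols, the shares were 365 (3.33%) and 798 (7.28%). A match describes letters in the window and is not evidence of binding.

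Type I interferon-stimulated genes encode antiviral effectors such as ISG15 and the IFIT proteins, which tag proteins or bind foreign RNA. In the Ifnk TG nodes 54 of 55 members had a log2 difference above 0, with a median of 0.81. Of these, 29 (52.7%) lay wholly above NoTx and none wholly below, against 6.23% of all genes. edgeR called 0, with 35 higher and none lower at an unadjusted p under 0.05, and DESeq2 called 4 higher, Parp14, Dtx3l and Ly6a among them. The difference was carried unevenly by the 3 UVTx libraries. Library 11 was the highest of them for 52 of 55 members and lay above every NoTx library for all 55, while library 10 did so for 36 and library 12 for 44. The list score was −0.56, −0.60 and −0.71 in NoTx and −0.24, 1.07 and 0.14 in UVTx. Without library 11 the median was 0.55 and 8 members had an edgeR p under 0.05 without adjustment in place of 35. With Xist as a covariate the number was 9, but Xist was low in every library and highest in library 11, at 42 counts. Leaving out 1 NoTx library gave 15 to 17. Without library 10, 45 members (81.8%) lay wholly above, against 10.5% of all genes.

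Ifit1 was at 7.97, 4.48 and 6.48 CPM in NoTx and 12.6, 79.0 and 22.7 CPM in UVTx, so that library 11 alone was at more than 3 times the next. Ifit3 had the same shape, from 6.41, 4.94 and 4.93 CPM to 10.4, 96.4 and 26.9 CPM. Their log2 differences of 2.59 ± 1.01 and 3.03 ± 1.15 had adjusted p-values of 0.4807 and 0.4733 by edgeR. Isg15 overlapped, at 11.0, 7.01 and 6.71 CPM against 8.58, 46.5 and 19.4 CPM, and so did Ifit2, at 49.4, 55.2 and 53.4 CPM against 54.3, 126 and 69.1 CPM. Ly6a and Parp14, named after their values were seen, were wholly higher, with Ly6a at 23.3, 12.0 and 13.7 against 40.1, 135 and 81.01 CPM and Parp14 at 234, 195 and 221 against 295, 450 and 367 CPM.

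Transcripts of type I and type III interferons were nearly absent from the Ifnk TG libraries. Of 20 type I and type III interferon genes in the table, 2 had any count in the Ifnk TG libraries, and the highest sum over 3 libraries was 4. Ifng, the gene of interferon gamma, was counted 73 times over the NoTx libraries and 82 times over the UVTx libraries. That gave 0.730, 0.709 and 0.605 CPM against 0.901, 0.835 and 0.826 CPM, and though the libraries did not overlap, the log2 difference of 0.32 ± 0.35 was within its error. Signalling components were mostly a little higher, with 22 of 26 receptors, kinases, transcription factors and regulators above 0 and 9 (34.6%) wholly above NoTx, or 14 (53.8%) without library 12. Of 24 nucleic acid sensors 7 (29.2%) lay wholly above, with a median of 0.28, or 12 (50%) without library 12.

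Genes of class I antigen presentation lay slightly higher. They load and display peptides to CD8 T cells, and all 24 members tested had a log2 difference above 0, with a median of 0.21 and 8 (33.3%) wholly above. Without library 12 the number was 15 (62.5%), against 19.8% of all genes, while the members with an edgeR p under 0.05 without adjustment went from 8 to 1 without NoTx library 5 and to 0 without NoTx library 6. H2-K1 was at 390.0, 345 and 347 CPM in NoTx and 392, 411 and 479 CPM in UVTx, separated by less than the SD of either group. H2-D1 overlapped, at 1640, 1549 and 1548 CPM against 1491, 1612 and 2001 CPM, and H2-Q4 overlapped too. The class I genes are close copies of each other and vary by strain, so their single values are uncertain. Class II genes had a median of 0.09 over 17 members, and 1 lay wholly above.

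**Figure D3:**
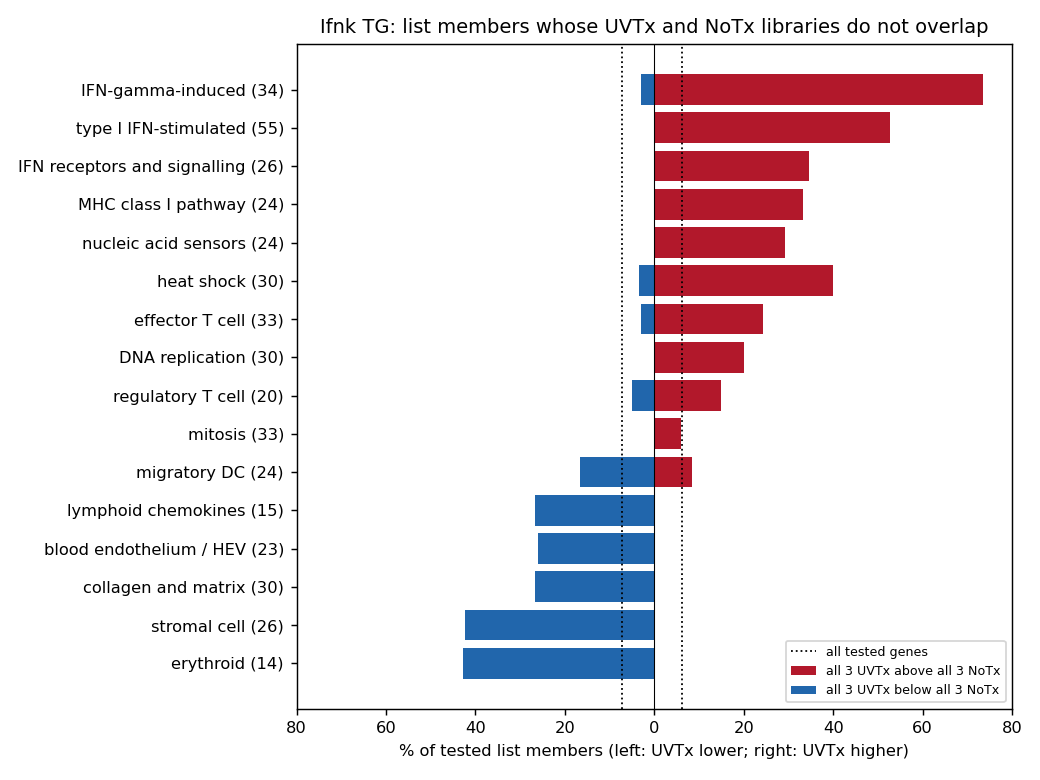
Horizontal bars give, for each gene list, the percentage of tested members whose 3 Ifnk TG UVTx libraries lay wholly above or wholly below the 3 NoTx libraries, and dotted lines mark the same percentage over all genes, 6.23% above and 7.11% below. The interferon gamma list reaches 73.5% above and the type I list 52.7%, the reticular stroma list 42.3% below and the erythroid list 42.9% below.

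Genes of the fibroblastic reticular network, the stromal scaffold of the T and B cell zones, lay lower in the irradiated Ifnk TG nodes. Of 26 members 23 had a log2 difference below 0, with a median of −0.93, 11 (42.3%) lay wholly below NoTx and none above, against 7.11% of all genes. DESeq2 called 2 lower, Il7 and Cxcl13, and edgeR 0, with 13 lower and 1 higher at an unadjusted p under 0.05. Library 12 had the highest level among the UVTx libraries for 25 of the 26, and NoTx library 5 the highest among NoTx for 22. The list score was 0.45, 1.16 and 0.41 in NoTx and −0.55, −0.71 and 0.38 in UVTx. Without library 12 the number wholly below was 19 (73.1%), the median −1.51, and the background 18.3%. The nodes were passed through a strainer before lysis, and how much stroma each preparation kept was not measured. In bulk RNA a smaller number of these cells and less RNA per cell cannot be told apart.

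Il7, the survival cytokine of naive T cells (chromosome 3, 7569994 to 7613760), was at 2.46, 6.47 and 2.74 CPM in NoTx and 0.640, 0.801 and 1.32 CPM in UVTx. Every UVTx library lay below every NoTx library, and the means were 3.89 ± 2.24 and 0.919 ± 0.353 CPM (SD, n = 3). The log2 difference was −2.08 ± 0.40, with an adjusted p of 0.0007134 by DESeq2 and 0.1545 by edgeR. Cxcl13, which draws B cells into follicles, was at 19.0, 38.8 and 15.1 CPM against 4.33, 3.27 and 9.15 CPM, a difference of −2.12 ± 0.45 without overlap (DESeq2 adjusted p = 0.004034, edgeR 0.1797). Ccl21a, one of the T zone chemokine genes and a member of a family of near copies, was at 59.95, 134 and 57.8 CPM against 19.8, 18.3 and 54.1 CPM, so that library 12 nearly reached NoTx. Ccl19 overlapped, since library 12 at 17.7 CPM exceeded 2 of the NoTx libraries at 16.5, 19.7 and 9.71 CPM while libraries 10 and 11 were at 4.68 and 4.11 CPM. Pdpn overlapped as well, below 1 CPM in every Ifnk TG library.

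Vessel and matrix genes followed in part. Of 23 high endothelial and blood vessel genes 18 were below 0, with a median of −0.70 and 6 (26.1%) wholly below. With limma-voom library weights that median was −0.28, and it was −0.42 over the 8 members with at least 10 counts in every library. The mean NoTx level was under 10 CPM for 21 of the 23. Glycam1, a sulphated ligand for the homing receptor CD62L on high endothelial venules, was at 8.70, 10.9 and 7.38 CPM in NoTx and 3.46, 2.92 and 4.28 CPM in UVTx. Its groups were well apart and library 12 was little different from its group, for a log2 difference of −1.33 ± 0.26 (DESeq2 adjusted p = 0.0004984, edgeR 0.1545). General endothelial genes did not separate, with Pecam1 at 252, 245 and 251 CPM against 215, 251 and 223 CPM, Cdh5 at 6.95, 8.82 and 6.66 against 6.69, 6.33 and 9.27 CPM, and Cldn5 and Esam overlapping too. Collagen and matrix genes had a median of −0.72 over 30 members, with 8 (26.7%) wholly below and 20 (66.7%) without library 12, and NoTx library 5 was the highest NoTx library for all 30. Dpt, a dermatopontin gene of fibroblasts, was at 4.19, 9.62 and 4.61 CPM against 1.28, 0.905 and 1.41 CPM, a log2 difference of −2.35 ± 0.46. Without NoTx library 5 the medians were −0.56 for reticular stroma, −0.31 for matrix and −0.37 for vessel genes, and the members with an edgeR p under 0.05 without adjustment numbered 3, 2 and 2, against 14, 9 and 7 with it.

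**Figure D4:**
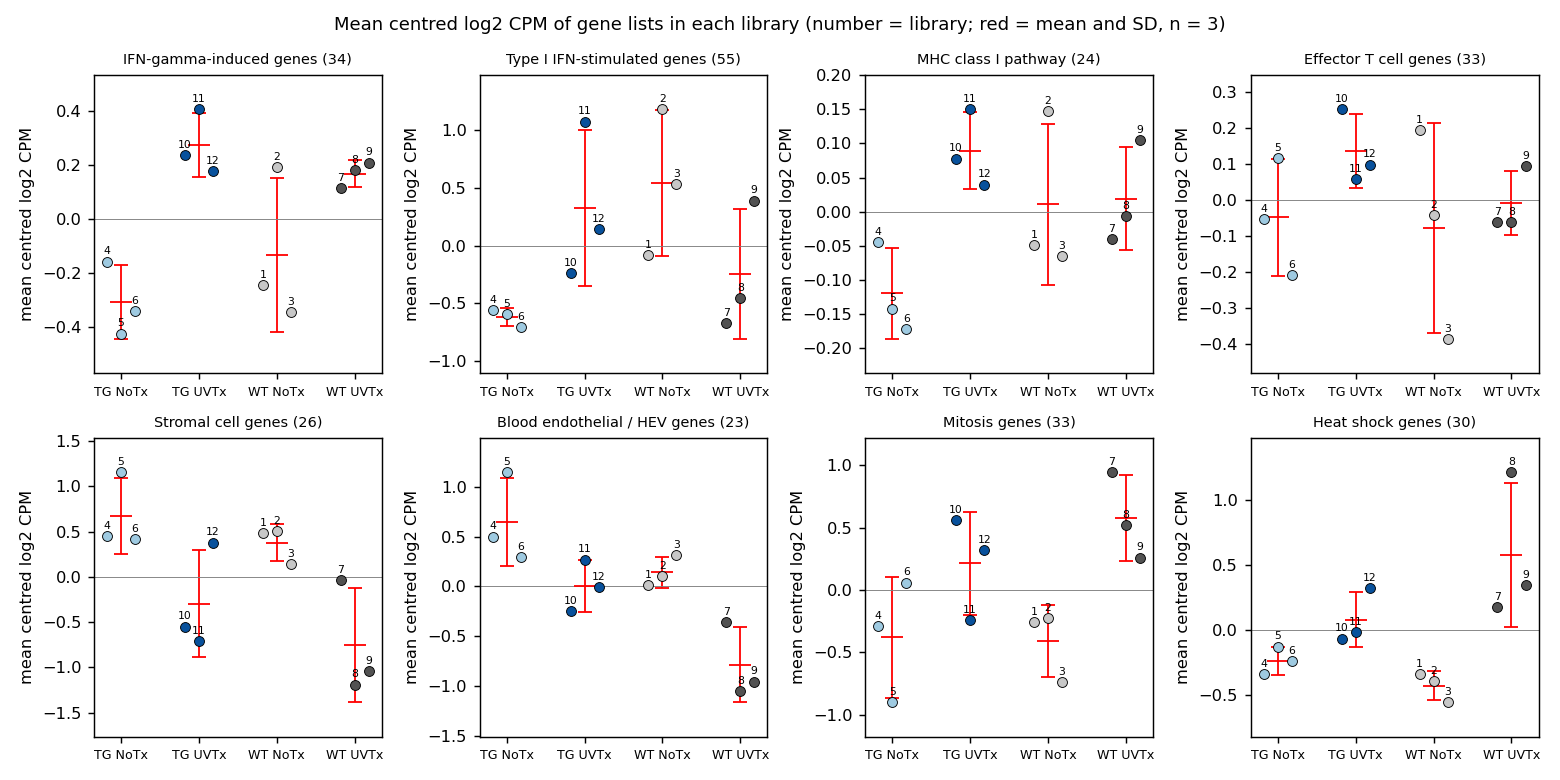
Each panel shows the score of 1 gene list (y axis, mean log2 CPM relative to each gene's mean over the 12 libraries) in every library, grouped on the x axis by genotype and treatment. Ifnk TG UVTx library 12 lies at 0.38 for reticular stroma, next to the NoTx libraries, while for the interferon gamma list it lies at 0.18, above all 3 of them.

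Among the 10 named genes on the higher side, Penk, Nt5e and Apol7e were outside the interferon lists. Penk, the precursor of enkephalin peptides and a transcript known from tissue regulatory T cells, was at 1.65, 0.965 and 1.41 CPM in NoTx and 3.81, 3.38 and 4.38 CPM in UVTx. The groups were wholly apart, with a log2 difference of 1.52 ± 0.28 (DESeq2 adjusted p = 0.0001361, edgeR 0.1545). Nt5e, which encodes the adenosine-producing ectoenzyme CD73, was at 13.1, 11.9 and 14.7 CPM against 19.9, 19.7 and 28.1 CPM, and Apol7e, an apolipoprotein L family gene, at 5.95, 6.04 and 6.46 CPM against 12.6, 13.7 and 11.3 CPM. Neither pair of groups overlapped, with differences of 0.77 ± 0.15 and 1.03 ± 0.19.

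The defining regulatory T cell genes did not separate the groups as Penk and Nt5e did. Foxp3 was at 63.2, 48.9 and 52.5 CPM against 50.02, 43.7 and 75.0 CPM, with a log2 difference of 0.04 ± 0.17, and Il2ra, Ikzf2 and Ikzf4 overlapped between the groups as well. Of 20 members 11 lay above 0 and the median was 0.03, with 3 (15%) wholly above and 1 (5%) below. Without library 12 the median was −0.24 and 8 (40%) lay wholly below, against 18.3% of all genes. Among 33 effector and memory T cell genes 25 lay above 0 with a median of 0.17, and 8 (24.2%) were wholly above, but the median was 0.07 without NoTx library 6. Cxcr3, the receptor for interferon-induced chemokines on activated T cells, was at 27.1, 22.9 and 22.9 CPM against 32.3, 37.4 and 44.2 CPM, and Itgae, the CD103 integrin of epithelial resident T cells, at 63.7, 55.5 and 44.6 CPM against 85.4, 76.3 and 107 CPM. Both were called higher by DESeq2 (adjusted p = 0.008921 and 0.02753) and neither by edgeR, and both were named after their values were seen. The activation genes Cd44 and Cd69 overlapped, and in each library 12 was the highest of the 6. Zeb2, a transcription factor of terminal effector cells, was called lower by DESeq2 at −0.44 ± 0.11.

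On the lower side Wif1 and Nkd1, both inhibitors of Wnt signalling, had the lowest p. Wif1 was at 0.973, 1.45 and 0.634 CPM in NoTx and 0.0582, 0.0348 and 0.184 CPM in UVTx, where 2 of the 3 libraries were under the floor of 3 counts. Nkd1 was at 1.14, 1.504 and 0.951 CPM against 0.233, 0.104 and 0.153 CPM. Neither gene overlapped, and the fitted log2 differences were −3.39 ± 0.54 and −2.83 ± 0.48, the first set by a few counts in UVTx. The other named genes on this side were Pdlim4 (−0.54 ± 0.11), Snap91 (−2.15 ± 0.42), Tmcc2 (−1.30 ± 0.26), Zfp385a (−0.77 ± 0.16) and Rgl1 (−0.43 ± 0.09), and all had libraries that did not overlap. Rgl1 was at 45.1, 47.2 and 42.5 CPM against 32.2, 34.4 and 33.4 CPM, a small difference with a narrow spread. Ccl22, the chemokine by which migratory dendritic cells attract CCR4-bearing T cells, was at 36.6, 52.0 and 34.7 CPM against 25.7, 19.5 and 24.8 CPM and was called lower by DESeq2 at −0.82 ± 0.17. Over the 24 migratory dendritic cell genes 19 lay below 0, the median was −0.20, and 4 (16.7%) were wholly below with 2 (8.33%) wholly above. Without library 12, 7 (29.2%) were wholly below.

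Mitosis genes were higher on average but split the UVTx libraries. All 33 had a log2 difference above 0, with a median of 0.55, yet 2 (6.06%) lay wholly above NoTx, a share like that of all genes (6.23%). Library 10 was above every NoTx library for 33 members and library 12 for 30, but library 11 for 2. Mki67, a marker of cycling cells, was at 37.2, 22.2 and 55.6 CPM in NoTx and 101, 55.1 and 77.6 CPM in UVTx, and Top2a at 48.1, 30.6 and 59.5 CPM against 91.2, 50.8 and 80.9 CPM. Both overlapped through library 11, and the log2 differences of 1.02 ± 0.39 and 0.69 ± 0.30 had edgeR adjusted p-values of 0.4733 and 0.5144. Ccnb1 and Ccnb2 overlapped in the same way. Without library 11, 30 members (90.9%) lay wholly above, against a background of 9.998%, and without NoTx library 6 the number was 16 (48.5%). Without library 10 or without NoTx library 5, 0 members had an edgeR p under 0.05 without adjustment in place of 10, and the median was 0.41 or 0.36. With limma-voom library weights it was 0.17. Type I interferon genes were highest in library 11 and mitosis genes in library 10, so the 2 lists did not order the irradiated libraries alike. DNA replication genes had a median of 0.25, with 27 of 30 above 0 and 6 (20%) wholly above.

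Heat shock genes had a median of 0.27, with 12 of 30 (40.0%) wholly above and 1 (3.33%) wholly below. Library 12 was the highest UVTx library for 20 of them, and Hspa8, the constitutive chaperone, was at 967, 958 and 1017 CPM against 1227, 1112 and 2209 CPM. Hspa5 was at 419, 393 and 424 CPM against 456, 461 and 581 CPM, also without overlap, and Hspa1a and Hspa1b, near copies that share reads, stayed below 6 CPM. Without library 12 the median was 0.09, with 13 wholly above and 3 (10%) wholly below. Erythroid genes lay lower, with a median of −0.63 and 6 of 14 (42.9%) wholly below. That median was −0.09 when haemoglobin, immunoglobulin and T cell receptor genes were left out, −0.10 over the 10 members with at least 10 counts in every library, −1.41 without a filter and −1.42 without library 11. Hba-a1 was at 71.6, 62.6 and 62.6 CPM against 6.19, 28.4 and 36.2 CPM. These haemoglobin levels trace blood in the node, and their part in the other results was not tested.

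Lymphocyte lists had small medians with all 6 libraries. B cell genes had a median of 0.11 over 23 members and none lay wholly above or below. Pan-T genes had a median of −0.03 over 20, with 1 (5%) wholly above and 1 (5%) wholly below. Naive T genes had a median of −0.10 over 15, with 4 (26.7%) wholly below and none above. Cd8a, named after its value was seen, had the lowest p of the pan-T genes. It was called higher by limma-voom with library weights (0.50, adjusted p = 0.03418), but not by edgeR (0.3077) or DESeq2. Without library 12, 7 pan-T genes (35%) lay wholly below and 2 (10%) above. For naive T genes those counts were 8 (53.3%) below and 1 (6.67%) above. Macrophage genes had a median of −0.22 over 30, with 4 (13.3%) wholly below and 8 (26.7%) without library 12, and 9 neutrophil genes had a list score of −0.71, −0.57 and 1.25 in UVTx, where library 12 again stood with NoTx libraries at 0.73, 1.29 and 0.84. Of those 9 genes 1 lay wholly below with library 12 and 7 (77.8%) without it. Ribosomal protein genes had a median of −0.08 over 78 members and respiratory chain genes −0.04 over 72, with none wholly above in either list. Both depended on library 12. Without it, 73 ribosomal protein genes (93.6%) and 34 respiratory chain genes (47.2%) lay wholly below, against 18.3% of all genes, and the ribosomal median was −0.32, with 59 members at an edgeR p under 0.05 without adjustment and 0 called.

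The same contrast in WT nodes was compared to see where the transgene line differed. In WT, edgeR called 472 genes higher (2.92%) and 333 lower (2.06%), a count of 805 that became 0 without WT UVTx library 8 and 7 without WT NoTx library 3. Of the 472, 458 (97.0%) also had a log2 difference above 0 in the Ifnk TG nodes, with medians of 0.27 in Ifnk TG and 0.66 in WT. Of the 333, 314 (94.3%) lay below 0 in Ifnk TG, with medians of −0.19 and −0.53. Over all 16173 genes tested, 8699 (53.8%) lay above 0 and 7468 below 0 in Ifnk TG. The 2 contrasts share no libraries. A test of the difference between them, the interaction of treatment and genotype, called 0 genes by edgeR (lowest adjusted p = 0.6158, 881 genes at an unadjusted p under 0.05) and 8 by DESeq2. Having no gene called in Ifnk TG and 805 in WT by edgeR therefore does not show that the response differed.

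Gene by gene, the Ifnk TG differences that WT repeated included Penk (1.53 in WT), Glycam1 (−1.34), Il7 (−2.25) and Wif1 (−3.07), all called in WT by edgeR. Gbp2b, Irgm2 and Gbp3 were also called higher in WT, at 0.63, 0.75 and 0.56. Snap91 was at 0.07 in WT against −2.15 in Ifnk TG. Its interaction was not called (adjusted p = 0.848 by edgeR and 0.3272 by DESeq2). Its Ifnk TG UVTx libraries held 8, 9 and 6 counts, and its NoTx mean was 1.08 CPM in Ifnk TG and 0.54 CPM in WT. The reticular stroma list had a WT median of −1.32 and the high endothelial and vessel list −1.02, both in the direction of Ifnk TG. Mitosis genes had a WT median of 1.01 with 6 called higher, and heat shock genes 0.86 with 14 called higher.

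The type I list lay in opposite directions in the 2 genotypes. Its WT median was −0.73 against 0.81 in Ifnk TG, 49 of 55 members were higher in Ifnk TG and lower in WT, and for all 55 the Ifnk TG difference was above the WT difference. None of the 55 had an interaction adjusted p under 0.848 by edgeR, while 45 had an unadjusted p under 0.05. In WT, NoTx library 2 was the highest NoTx library for 54 of the 55 and its list score was 1.18, beside −0.09 and 0.54 in the other WT NoTx libraries and −0.67, −0.46 and 0.39 in WT UVTx. The WT groups overlapped for most members, with 6 wholly lower and none wholly higher. The part of WT NoTx library 2 and Ifnk TG UVTx library 11 in the opposite signs was not tested. The interferon gamma list had a WT median of 0.35, with 6 called higher by edgeR, and 4 of 34 members had opposite signs.

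**Figure D5:**
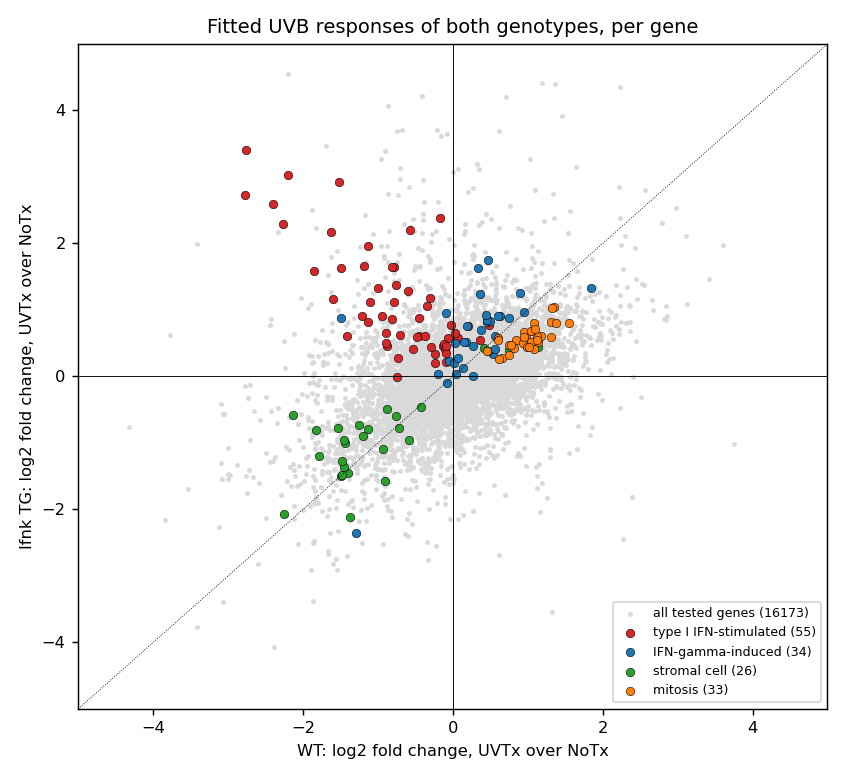
Each point is a gene, placed by its log2 difference between UVTx and NoTx in WT (x axis) and in Ifnk TG (y axis) nodes, with 4 gene lists coloured. Most type I interferon genes lie in the upper left, most stromal genes in the lower left, and most interferon gamma response and mitosis genes in the upper right, and 25 genes lie outside the axes.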

How the data were processed

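RNA from mouse inguinal lymph nodes was sequenced as poly-A selected paired-end libraries. Per the labels and the submitters' processing notes, the authors trimmed reads with cutadapt 4.8, aligned them to GRCm38 with STAR 2.7.8a and estimated counts per gene with RSEM 1.3.3. The deposited expected counts were whole numbers and were used as they stand, for 55487 genes. 4 rows without a mouse gene, all at 0 counts, were left out.

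Groups came from the genotype and treatment labels. All 12 node libraries entered 1 fit by group in edgeR 4.0.16 (R 4.3.3) with TMM scaling, filterByExpr and a robust quasi-likelihood F-test, and Benjamini-Hochberg adjustment ran over the 16173 genes kept. The main contrast was Ifnk TG UVTx against NoTx, with 3 libraries each. DESeq2 1.42.0 and limma 3.58.1 were alternatives. The standard error was taken from the F statistic, CPM used the TMM-scaled library size, and totals of 27599809 to 36428435 counts set the floor of 3 counts per library. Counting intervals were not needed, since every value is given per library.

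The members and 53 gene lists were chosen with earlier results of these data known. Named genes were the 10 with the lowest p in each direction, without overlap and with at least 1 CPM in the higher group, leaving out predicted models, plus the first 4 of each described list. Exceptions are marked where named, and 1 gene that the rule names is not reported here. Promoters and motifs were read from RefSeq windows. Since edgeR called none, the promoters shown were taken from DESeq2's calls. The edgeR script was tested on simulated data. The study's own analysis used DESeq2.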

Additional observations from a re-analysis of the deposited data

Results flagged for a closer look

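8 genes had a response to UVB that differed between Ifnk TG and WT nodes by DESeq2's test of the interaction at an adjusted p under 0.05. edgeR called none of them (adjusted p = 0.6158 for Gm43802 and 0.848 for the other 7). Values are the log2 difference in Ifnk TG minus that in WT.

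4 of them belong to the antiviral interferon response or lie close to it. Ifih1, which encodes the RNA sensor MDA5, differed by 1.85 (0.90 in Ifnk TG and −0.94 in WT, DESeq2 adjusted p = 0.02065). Ifit1bl2 differed by 2.45 (0.70 and −1.75, 0.04259), Phf11a by 2.41 (0.80 and −1.61, 0.04259) and Lgals3bp by 1.35 (0.46 and −0.89, 0.0228). All 4 were above 0 in Ifnk TG and below 0 in WT.

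The other 4 went the other way. Safb, a nuclear RNA-binding protein gene, differed by −0.77 (0.16 in Ifnk TG and 0.93 in WT, DESeq2 adjusted p = 0.01085). The predicted genes Gm12940, Gm50387 and Gm43802 differed by −1.54 (0.21 and 1.76, 0.0228), −1.03 (0.07 and 1.10, 0.0228) and −4.87 (−3.54 and 1.33, 8.932e-06). What sets these differences was not tested.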

How the results depend on the processing

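The count of 0 genes called by edgeR in Ifnk TG nodes held under RLE and upper-quartile scaling, no filter, a stricter filter, a fit of the 6 Ifnk TG libraries alone, a non-robust fit and adjustments for Xist and immunoglobulin genes. It was 137 with DESeq2 and 110 with limma-voom library weights (chosen after seeing the data, weight 0.240 for UVTx library 12). Leaving out 1 library gave 0 to 236, and 236 came without UVTx library 12 (170 higher, 66 lower). The interaction count was 0 except 8 with DESeq2, and 0 to 1 with 1 library left out. The WT count of 805 became 1969 with DESeq2, 2431 in a fit of WT alone and 0 to 493 with 1 library left out (0 without UVTx 8, 7 without NoTx 3, 29 without UVTx 9, 190 without NoTx 2, 277 without NoTx 1, 493 without UVTx 7).

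Of 317 refitted differences for the 20 named genes none reversed, 264 stayed on the same side of the threshold and 53 passed it. The stromal list median ran from −1.51 to −0.56 with 1 library left out. No paired analysis was possible because the labels give no pairing between libraries of the compared groups. Of 192 list medians 185 moved by less than the spread between libraries and 5 changed sign, 4 of regulatory T cell genes and 1 of ribosomal protein genes. Depth limits genes such as Wif1, whose UVTx libraries held few counts.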
